A study of Bos taurus with 47 samples.

Results

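The genes described here are 76 of the 24616 gene identifiers measured in cattle tissues, those whose 2 highest tissue means were heart and muscle, each well above every other tissue. They were chosen by their measured levels: the lower of both means had to reach 1 FPKM and 4 times the mean ranked 3, and the higher had to stay under 4 times the lower. FPKM is the number of sequenced fragments per kilobase of transcript, scaled to the library's size, so levels can be set side by side between genes. RNA of Holstein cattle was sequenced in 47 libraries under 15 tissue labels. Heart, muscle, kidney, frontal cortex, ileum, adipose tissue, lung, liver, rumen and spleen had 4 libraries each, from the same 4 animals: 2 males, called A and B here in the order of their label numbers, and 2 females, called the lactating and dry cow because those states of the mammary gland were sampled from them. Uterus and ovary had 2 libraries each, from the females, while there was a single library, without replicate, of the lactating gland, of the dry gland and of lymphocytes from a further male. No treatment or genotype is given, nor the animals' ages or the part of the heart. The muscle is named by a tissue code in the sample titles, LDOR in 3 of 4, which the labels do not spell out. The members were numbered 1 to 76 by the mean of their heart and muscle levels, member 1 being the most abundant.

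Heart and skeletal muscle are the striated muscles: in both, actin and myosin filaments are arranged in repeating sarcomeres, and calcium released from an internal store starts the contraction. Many structural, calcium-handling and energy-supplying proteins are the same in both tissues, while others have a cardiac and a skeletal version. Smooth muscle, found in the walls of the uterus, gut and vessels, contracts without sarcomeres and uses other versions of several of these proteins. The deposited identifiers are not paired with gene names, and none matched the reference table, so the members are described by their levels alone and none is given a role. For the same reason the tissue labels were not checked against marker genes.

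Because the levels in all 15 labels chose the members, their height in heart and muscle over the other tissues and the ratio between heart and muscle are given as a description, with no test. The difference between males and females was not used in the choice and was tested. In bulk tissue, fewer cells of a type and less RNA per cell cannot be told apart. Summed FPKM per library ran from 576130 to 964931, and depth in fragments is unknown. The heart library of male B stood apart from the other 3 hearts: over 11877 identifiers its median deviation from the heart mean was 0.21 on the log2(FPKM + 1) scale, while the median deviation of the 76 members in it was -0.09.

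The 76 members together accounted for more than 10% of the summed FPKM in both tissues and very little elsewhere. Their FPKM summed to 112520 ± 8613 in heart (SD, n = 4), with libraries between 101608 and 122157. In muscle the sum was 74653 ± 2039 (n = 4), between 72292 and 77172. As a share of the library's FPKM this was 12.2% ± 0.581 in heart and 10.3% ± 0.291 in muscle. The next highest label was uterus, with sums of 1935 in the lactating cow and 1093 in the dry cow. Frontal cortex followed at 858 ± 42.4, kidney at 699 ± 75.1 and ileum at 530 ± 50.4 (n = 4 each), and the lymphocyte library was lowest at 125. Uterus, next after muscle by the sum, owed it mainly to a single gene described below. The median member stood at 83.7 FPKM in heart, 109 FPKM in muscle and 1.39 FPKM in frontal cortex, and between 0.113 and 0.568 FPKM in the other labels.

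**Figure D1:**
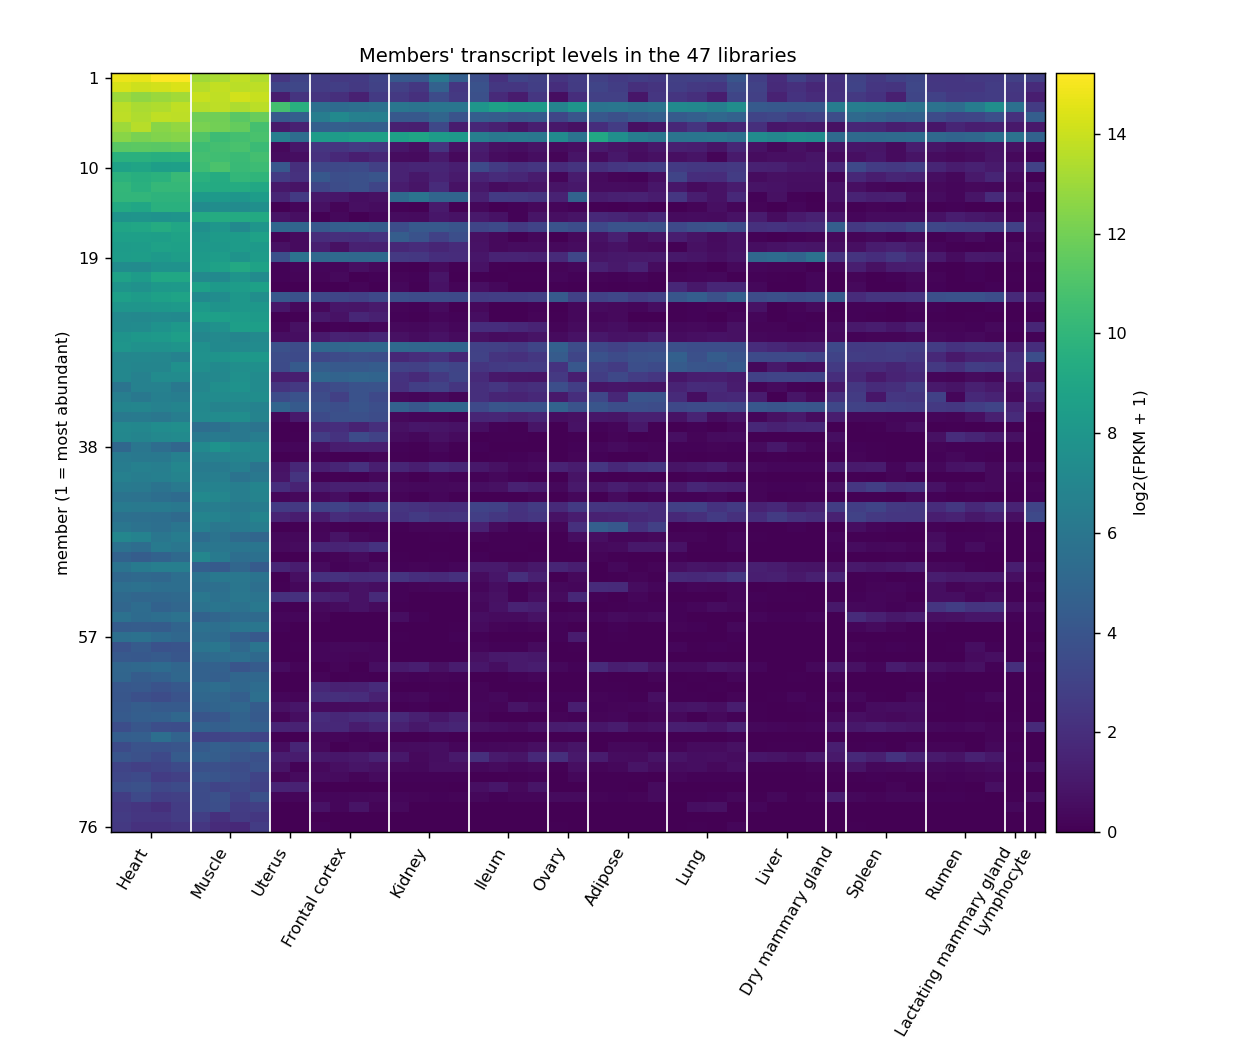
Level of each of the 76 members (vertical axis, member 1 at the top) in each of the 47 libraries (horizontal axis, grouped by tissue label), as log2(FPKM + 1) in colour. The 4 heart and 4 muscle columns are bright for every member, and a few members also stand out in uterus, frontal cortex, kidney or in all labels.

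A few members made up most of the signal. Members 1 to 7 held 87.3% of the members' sum in heart and 81.4% in muscle. Members 8 to 76 summed to 14248 FPKM in heart and 13878 FPKM in muscle, so the gap between the tissues' totals lay in the most abundant 7. The mean of both tissues reached 10000 FPKM for 4 members, 1000 FPKM for 9, 100 FPKM for 38 and 10 FPKM for 71. Of the 10 most abundant identifiers of each tissue, 5 in heart and 2 in muscle were members, and of the 100 most abundant, 8 in heart and 11 in muscle. Genes that passed the same kind of rule for 1 of the tissues weighed more in muscle: 86 heart-enriched identifiers held 20.5% ± 2.54 of heart FPKM and 3.08% ± 0.344 of muscle FPKM, and 129 muscle-enriched identifiers held 1.84% ± 0.232 of heart FPKM and 40.2% ± 0.566 of muscle FPKM (SD, n = 4).

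Member 1 was the second most abundant identifier in heart and the 12th in muscle. Its level was 28451, 26790, 38337 and 37103 FPKM in the hearts of males A and B, the lactating cow and the dry cow. In the muscles of the same animals, in the same order, it was 8553, 9900, 14055 and 10862 FPKM. Every heart was above every muscle, the means being 32670.1 and 10842 FPKM, and in both tissues both females were above both males. The difference between females and males did not pass the test described below. Member 1 was above 1 FPKM in all 39 other libraries, at 2.75 to 15.4 FPKM outside kidney. It reached 66.2 FPKM in the kidney of the lactating cow, against 16.5 to 23.8 FPKM in the other 3 kidneys.

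Member 2 was nearer to equal in the pair. Its level was 20198, 17040.3, 18754 and 20925 FPKM in the 4 hearts and 11895, 14360 and 12757 FPKM in the muscles of males A and B and the lactating cow, with 13185 FPKM in that of the dry cow. The hearts did not overlap the muscles, and the mean was 1.47 times higher in heart. The highest other label was kidney at 10.2 FPKM, so the lower of heart and muscle exceeded it 1283-fold.

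Member 3 ran the other way. Its level was 8270, 6626, 7852 and 8986 FPKM in the hearts and 16049, 13924, 18604 and 16107 FPKM in the muscles, in the same order of animals. All 4 muscles were above all 4 hearts, by 2.04-fold on the means. Of the 75 members with a level above 0 in the rest of the body, it had the largest distance, 1401-fold over kidney at 5.66 FPKM.

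Member 4 was level in the pair and the least restricted of the 4 most abundant. It stood at 12819, 9841, 10998 and 13692 FPKM in the hearts and 11686, 13509, 10266 and 13081 FPKM in the muscles. The libraries overlapped, and the means of 11838 FPKM in heart and 12135 FPKM in muscle differed by less than their SDs of 1741 and 1470 FPKM. Outside striated muscle it was by far the most abundant member in uterus, with 1618 FPKM in the lactating cow and 783 FPKM in the dry cow. It was also present in ileum at 241 to 409 FPKM and at 5.25 FPKM in the lymphocyte library. In these uteri it made up most of the members' sums of 1935 and 1093 FPKM.

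**Figure D2:**
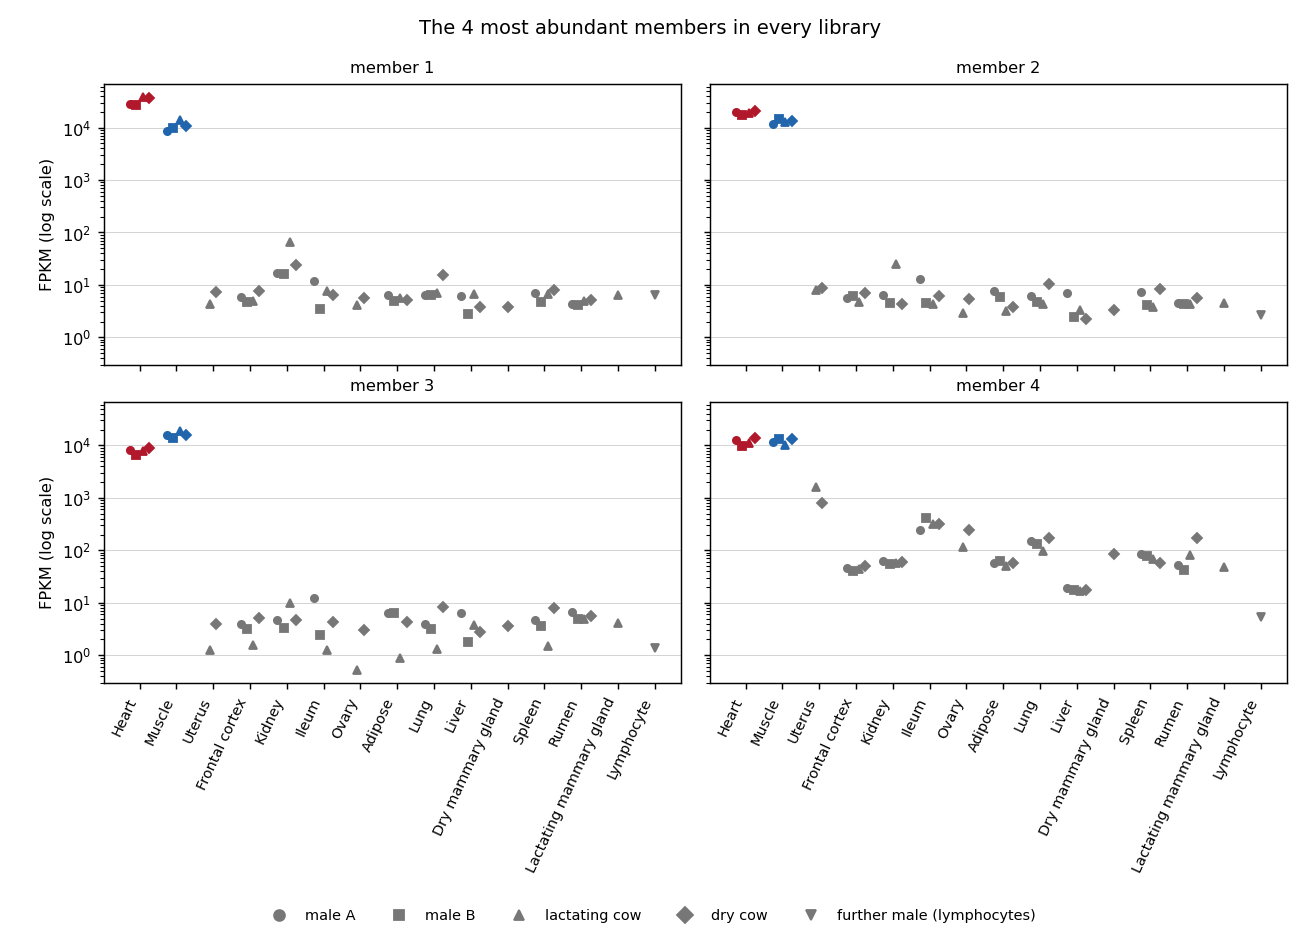
FPKM (log scale) of members 1 to 4 in each library, with tissue labels on the horizontal axis and 1 symbol shape per animal; heart is red, muscle blue and the other labels grey. Outside heart and muscle, members 1 to 3 have label means lower by about 351-fold or more. A kidney point of member 1 at 66.2 FPKM lies above its neighbours, while member 4 keeps 783 and 1618 FPKM in uterus.

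Members 5, 6 and 7 were higher in every heart than in every muscle. Member 5 had 13285, 11058, 13826 and 13178 FPKM in the hearts, against 3946, 3864, 2562 and 3384 FPKM in the muscles. Member 6 was the least even of the abundant members, with 8223, 12341, 5970 and 7066 FPKM in the hearts and 4569, 4113, 3164 and 1678 FPKM in the muscles. Both males exceeded both females for member 6 in both tissues, but the difference passed the limma test in neither (adjusted p = 0.464 in heart and 0.715 in muscle). Member 7 had 5987, 4577, 5168 and 5726 FPKM in the hearts, against 2172, 1415, 1624 and 1818 FPKM in the muscles. It was also the member with the highest level outside the pair after member 4: its mean was 376 FPKM in kidney and 369 FPKM in frontal cortex. In adipose tissue it was at 562 FPKM in male A, against 183, 82.4 and 63.0 FPKM in the other 3 animals. That 1 value made up most of the members' adipose sum of 795 FPKM in male A, where the other 3 adipose libraries lay between 286 and 401 FPKM.

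Members 8 to 15 ranged over 430 to 2100 FPKM on the mean of both tissues. Member 8 was the steadiest of them in heart, with 2532, 2673, 2619 and 2752 FPKM there and 1435, 1613, 1840 and 1338 FPKM in muscle. Member 9 reversed that order, with 792 ± 27.9 FPKM in heart and 1532 ± 134 FPKM in muscle (SD, n = 4). Member 11 was even, at 935 ± 230 FPKM in heart and 887 ± 183 FPKM in muscle. Members 12, 13 and 14 were higher in all 4 hearts than in all 4 muscles, and members 10 and 15 higher in all 4 muscles. Member 15 was steady in both tissues, from 217 to 239 FPKM in heart and from 603 to 658 FPKM in muscle.

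Between the tissues, the heart mean was higher for 33 members and the muscle mean for 43. The 4 hearts lay above the 4 muscles without overlap for 21 members, or 27.6%, where 48.8% of the 11877 identifiers with at least 1 FPKM in at least 2 of the 8 libraries did so. The muscles lay above the hearts without overlap for 28 members, or 36.8%, against 12.5% of those identifiers, and the libraries of the other 27 members overlapped. The median difference, heart minus muscle, of log2(FPKM + 1) was -0.15 over the members and 0.48 over all 11877. Since the ratio between the tissues was part of the choice, nothing is read from these shares. They also move with the scaling of libraries: with quantile normalization the median over all identifiers moved by -0.43, and 20 members were higher in heart and 56 in muscle. With all libraries rescaled to the same sum it moved by -0.27, and the split was 25 and 51.

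**Figure D3:**
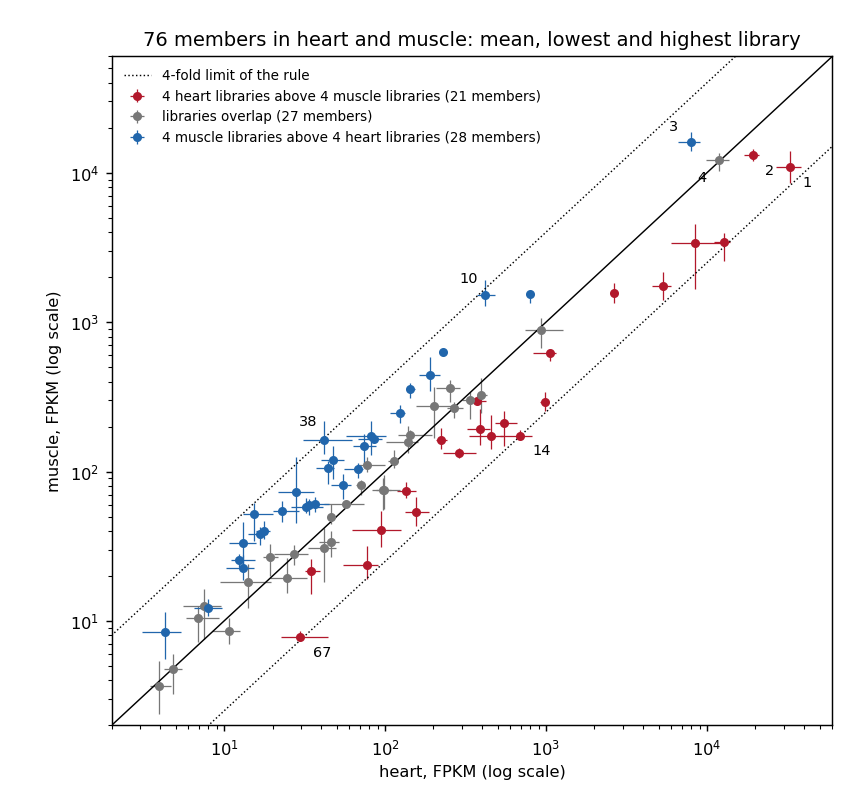
Mean FPKM of each member in heart (horizontal, log scale) and muscle (vertical, log scale), with bars from the lowest to the highest of 4 libraries; the solid line marks equal levels and the dotted lines the 4-fold limits of the rule. The 21 red members lie on the heart side and the 28 blue members on the muscle side without overlapping libraries, and the heart side is richer in abundant members.

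On the FPKM as deposited, the direction went with abundance among the members. It was read over 4 sets of 19 members whose means of both tissues were 319 to 21756, 102 to 318, 36.3 to 94.3 and 3.79 to 33.8 FPKM. This is a description only, since the ratio was part of the choice and identifiers of like abundance were not compared. Of members 1 to 19, 14 had the higher mean in heart and 5 in muscle, with a median log2 ratio of 0.56. Of members 20 to 38, 7 were higher in heart and 12 in muscle, and in each of the sets 39 to 57 and 58 to 76, 6 were higher in heart and 13 in muscle. The median log2 ratio in these last 3 sets was -0.31, -0.53 and -0.60. The lower of heart and muscle exceeded the highest other label by a median of 62.9-fold, 11.1-fold, 21.3-fold and 9.31-fold in the 4 sets. The size of the gap between heart and muscle was moderate for most: 46 members differed by less than 2-fold, 14 were at least 2-fold higher in heart and 16 at least 2-fold higher in muscle. Paired by animal, 25 members were higher in heart in 4 of 4 animals and 34 were higher in muscle in 4 of 4. The remaining 7, 6 and 4 were higher in heart in 3, 2 and 1 of the 4 animals. This count was not made over all 11877 identifiers, of which 72.0% had the higher mean log2(FPKM + 1) in heart. It also depends on the scaling of libraries, so nothing is read from it.

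By the ratio of the mean FPKM, the members furthest towards heart were ENSBTAG00000018267 (member 14) and ENSBTAG00000002024 (member 67), with log2 ratios of 1.99 and 1.93. Member 14 had 597, 521, 820 and 817 FPKM in the hearts, against 165, 178, 165 and 188 FPKM in the muscles. Outside the pair it was the scarcest of the 15 most abundant members, with its highest label mean at 0.453 FPKM in frontal cortex and a single other library above 1 FPKM, the kidney of the lactating cow. Member 67 had 22.7, 23.7, 44.1 and 28.3 FPKM in the hearts, against 7.70, 7.62, 8.53 and 7.37 FPKM in the muscles. It was steady in muscle and varied 1.95-fold among hearts, the lactating cow being highest.

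By the same ratio, the members furthest towards muscle were ENSBTAG00000040028 (member 38) and ENSBTAG00000010849 (member 10). Member 38 had 32.7, 62.3, 41.6 and 31.0 FPKM in the hearts, against 147, 218, 151 and 132 FPKM in the muscles. Male B was highest for it in both tissues. Member 10 had 415, 479, 375 and 393 FPKM in the hearts, against 1458, 1917, 1282 and 1397 FPKM in the muscles, and male B was again highest in both. The log2 ratios of the means, heart over muscle, were -1.95 for member 38 and -1.87 for member 10. Members 5, 13 and 50 followed on the heart side with log2 ratios of 1.90, 1.75 and 1.71, and members 58, 15 and 49 on the muscle side with -1.77, -1.47 and -1.38. On the log2(FPKM + 1) scale member 5, at 1.91, lay ahead of member 67, at 1.75.

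At the other end, 9 members differed by under 1.1-fold between the tissues. Member 24 was closest to equal. Its levels were 249, 243, 267 and 307 FPKM in the hearts and 291, 227, 270 and 270 FPKM in the muscles, each tissue being higher in 2 of the 4 animals. Its highest other label mean was 0.793 FPKM in frontal cortex, 333-fold below the lower of the pair.

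The rule cut through a continuous range. The largest gaps between heart and muscle inside the limit were 3.96-fold, 3.86-fold and 3.81-fold, and the first identifiers left out had 4.07-fold, 4.34-fold and 4.42-fold. Without that limit 108 identifiers met the rest of the rule, 14 of them at least 4-fold higher in heart and 18 at least 4-fold higher in muscle. At the other limit, the members closest to a further label had 4.30-fold over kidney, 4.38-fold over adipose tissue and 4.56-fold over frontal cortex. The nearest identifiers left out had 3.85-fold and 3.68-fold over lung and 3.56-fold over kidney.

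Absence from other tissues varied widely among the members. The lower of heart and muscle exceeded the highest other label at least 10-fold for 48 of the 75 members with a level above 0 outside the pair, and at least 100-fold for 20. The highest other label mean was under 1 FPKM for 19 members, from 1 to 10 FPKM for 36 and 10 FPKM or more for 21. No library outside heart and muscle reached 1 FPKM for 14 members, while 9 members (1, 2, 4, 5, 7, 23, 28, 29 and 44) reached it in all 39. The lowest heart or muscle library was above the highest other library for 76 of 76 members. The rule's 4-fold gap between label means favours this, so nothing is read from it. Member 75 was listed at 0 in all 39 other libraries, with 5.35, 4.24, 4.26 and 5.50 FPKM in the hearts and 6.01, 3.25, 5.26 and 4.56 FPKM in the muscles.

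Members 3, 2, 21, 39 and 14 had the widest distances of the 75 members with a level above 0 outside the pair. Member 21 had 411, 333, 527 and 539 FPKM in the hearts and 142, 150, 239 and 163 FPKM in the muscles, 630-fold over kidney on the lower mean. Member 39 had 75.5, 66.9, 66.5 and 100.04 FPKM in the hearts and 99.4, 103, 118 and 125 FPKM in the muscles, 550-fold over rumen. Neither reached 1 FPKM in any other library.

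Frontal cortex was the most frequent runner-up. It was the highest other label for 30 of 75 members, or 40%, and for 16.8% of the 9748 identifiers with at least 1 FPKM in both heart and muscle and a level above 0 outside them. Kidney held this place for 10 members, or 13.3%, against 11.8% of identifiers, and uterus for 7, or 9.33%, against 7.19%. The lymphocyte library did so for 3 members, or 4%, against 23.1%. The rule kept the other labels of the members well below heart and muscle, and the 9748 identifiers had no such limit. Nothing is therefore read from these shares. Frontal cortex had the most members at a label mean of 1 FPKM or more, 42 of 76. It was followed by uterus with 31 and kidney and spleen with 30 each. This count was not made over all identifiers, so nothing is read from it.

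**Figure D4:**
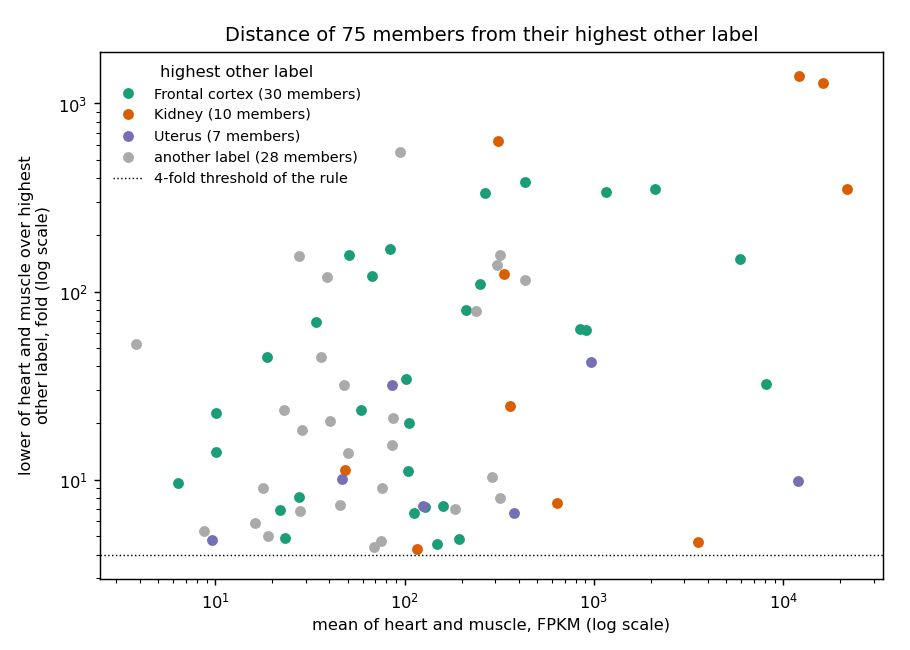
Fold of the lower of heart and muscle over the highest other label (vertical, log scale) against the mean of heart and muscle in FPKM (horizontal, log scale) for 75 members, coloured by that other label; the dotted line is the 4-fold threshold of the rule. Members whose next label is frontal cortex spread over the whole range, and the 2 highest points, members 3 and 2, have kidney next.

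The 20 members at least 100-fold above every other label were also compared between the remaining libraries. Each member's level was set against its own mean of heart and muscle, in parts per 1000000 (ppm), and the median over the 20 taken per library. The kidney of the lactating cow had 1536 ppm, against 278 to 557 in the other 3 kidneys. In this kidney members 1, 2 and 3 had 66.2, 25.4 and 9.94 FPKM, each above the other 3 kidneys. Frontal cortex lay between 784 and 1393 ppm, and the ileum of male A at 965, against 222 to 543 in the other ilea. Carry-over of striated muscle RNA or cells into single samples was not tested.

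Most members varied moderately among the 4 animals. The median of the highest over the lowest library was 1.39 in heart and 1.48 in muscle, and it was at least 2 for 3 members in heart (6, 38 and 69) and 7 in muscle (6, 26, 49, 57, 71, 74 and 76). The median SD of log2(FPKM + 1) over animals was 0.22 for members and 0.24 for all 11877 identifiers in heart, and 0.24 for members and 0.19 for all in muscle. The dry cow had the highest heart level for 34 members and male B the lowest for 29. In muscle no animal stood out in this way, the highest level being spread over 17, 17, 22 and 20 members. These counts were not made over all 11877 identifiers or with another scaling of libraries, so nothing is read from them. The median deviation from the heart mean was 0.10 in the dry cow and -0.09 in male B over the members. Over all 11877 identifiers it was -0.11 and 0.21. Within each animal, the members' deviations from the tissue mean were in part alike in heart and muscle. Across the 76 members they correlated at 0.47, 0.53, 0.32 and 0.23 for males A and B, the lactating cow and the dry cow. Over all 11877 identifiers these values were 0.40, 0.36, 0.22 and 0.34. Genes are not independent of each other and the libraries share the animal, so no p is given.

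Males and females were compared for every identifier in a limma fit over the 40 libraries of the 10 tissues sampled in all 4 animals, on log2(FPKM + 1), and all 76 members passed its filter on low values. There were 2 animals of each sex, which are the replicates, and the comparisons in heart and in muscle rest on the same 4 animals. The fit had no term for the animal. Its 20 residual degrees of freedom came from these 4 animals in 10 tissues and were taken as independent. Its p-values therefore do not rest on 2 against 2 animals alone and may be too small. In heart, 5 members passed the Benjamini-Hochberg adjusted threshold of 0.05, 3 of them higher in males and 2 higher in females. Of all 16503 identifiers, 3.31% were called, 3.09% higher in males and 0.218% higher in females. In muscle, 4 members passed, 3 higher in males and 1 in females, where 0.594% of all identifiers were called, 0.382% higher in males and 0.212% higher in females. At an unadjusted p under 0.05 there were 14 members in heart, or 18.4% against 19.8% of all identifiers, and 17 in muscle, or 22.4% against 6.90%. The share was not particular to the members. Of the 86 heart-enriched identifiers, 15.1% were called in heart and 1.16% in muscle, and of the 129 muscle-enriched ones 1.55% and 8.53%. The members had 6.58% and 5.26%. At an unadjusted p under 0.05 there were 23 and 6 of the 86, and 13 and 34 of the 129. The median difference, male minus female, was -0.10 over the members and 0.15 over all identifiers in heart, and -0.03 and 0 in muscle. With quantile normalization the median over all identifiers in heart moved by -0.15. The calls over all identifiers then split into 53 higher in males and 84 higher in females in heart, in place of 510 and 36, and into 101 and 96 in muscle, in place of 63 and 35. Among the members, 1 was then called in heart, member 67, and the same 4 in muscle.

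Members 57 and 71 were higher in males in both tissues. Member 57 had 46.8 and 49.4 FPKM in male hearts, against 38.5 and 33.4 FPKM in female hearts, and 41.6 and 38.2 FPKM in male muscles, against 24.2 and 18.3 FPKM in female muscles. Its log2 difference was 0.41 ± 0.11 in heart (SE, limma adjusted p = 0.0408) and 0.89 ± 0.11 in muscle (limma adjusted p = 4.8e-05). Member 71 had 8.52 and 9.52 FPKM in male hearts, against 5.59 and 6.38 FPKM in female hearts, and 16.4 and 14.7 FPKM in male muscles, against 11.6 and 7.58 FPKM in female muscles. Both males were above both females in each tissue for both members. The log2 difference of member 71 was 0.52 ± 0.13 in heart (limma adjusted p = 0.0277) and 0.67 ± 0.13 in muscle (limma adjusted p = 0.00889).

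Member 26 was higher in females in both tissues. It had 156 and 161 FPKM in male hearts, against 220.3 and 272 FPKM in female hearts, and 167 and 204 FPKM in male muscles, against 364 and 370.2 FPKM in female muscles. The log2 difference was -0.62 ± 0.16 in heart (limma adjusted p = 0.0358) and -0.99 ± 0.16 in muscle (limma adjusted p = 0.00227). Members 47 and 67 were called in heart. Member 47 had 125 and 106 FPKM in male hearts, against 62.6 and 83.8 FPKM in female hearts, a difference of 0.66 ± 0.18 (limma adjusted p = 0.0376). Member 67, whose values are given above, was lower in male hearts by a difference of -0.59 ± 0.13 (limma adjusted p = 0.0149).

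Member 49 was the 1 member whose sex difference itself differed between heart and muscle. It had 27.0 and 21.7 FPKM in male hearts, against 27.1 and 36.3 FPKM in female hearts. In muscle it had 126 and 72.9 FPKM in males, against 45.1 and 48.7 FPKM in females. The male minus female difference was -0.36 ± 0.17 in heart (limma adjusted p = 0.242) and 1.02 ± 0.17 in muscle (limma adjusted p = 0.00256), and the difference between these was -1.38 ± 0.24 (limma adjusted p = 0.0115). Of all 16503 identifiers, 0.0848% were called for this difference of differences.

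**Figure D5:**
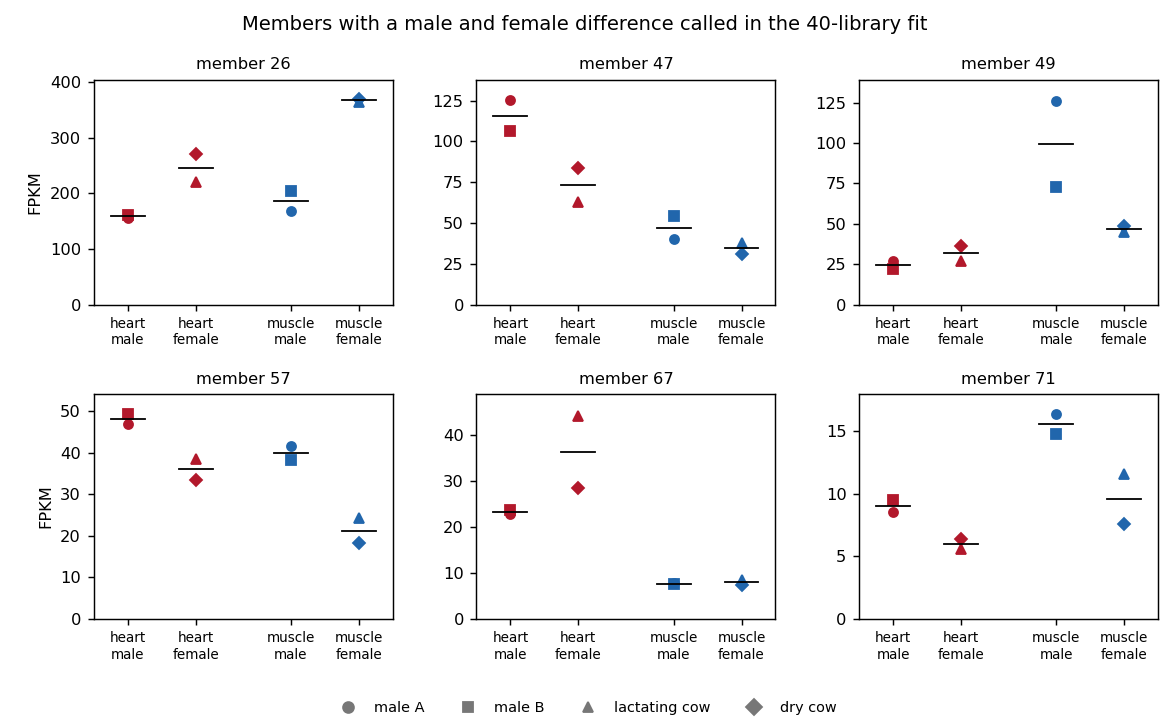
FPKM of the 6 members called for a male and female difference, with males left of females in heart (red) and muscle (blue), 1 symbol per animal and a bar at the mean of 2 animals. Males stand above females in both tissues for members 57 and 71, females above males for member 26, and for member 49 males stand above females in muscle but not in heart.

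The calls among members did not all hold in other fits, and the cause was not tested. In the 40-library fit, the spread is shared over 10 tissues. The median SD within tissue and sex over the members was 0.18 in heart and muscle and 0.21 in the other 8 tissues with 1 FPKM added, and 0.19 and 0.49 with 0.1 FPKM added. In a limma fit on the 8 heart and muscle libraries alone, which called 1.28% of 11877 identifiers in heart, 0.278% in muscle and 0.0421% for the difference of differences, no member passed in heart and member 26 passed in muscle (limma adjusted p = 0.0413). At an unadjusted p under 0.05 this fit had 15 members in heart, or 19.7% against 24.1% of all identifiers, and 20 in muscle, or 26.3% against 8.73%. No member passed there for the difference of differences (6 at an unadjusted p under 0.05, or 7.89% against 8.89% of all, with member 49 at a limma adjusted p = 0.498). For called members 57, 67, 71, 49 and 47, the SE of the sex difference in a tissue was 0.11, 0.13, 0.13, 0.17 and 0.18 in the 40-library fit. In the 8-library fit it was 0.17, 0.21, 0.21, 0.25 and 0.21, and for member 26 it was 0.16 in both. The highest label mean outside heart and muscle was 0.175 to 0.681 FPKM for the former and 2.56 FPKM for member 26. Why the SEs differ was not tested. With 0.1 FPKM added in the 40-library limma fit, no member passed in heart (0 at an unadjusted p under 0.05), in muscle (4) or for the difference of differences (1), while 952, 114 and 10 of all 16503 identifiers passed, or 5.77%, 0.691% and 0.0606%. Leaving out all libraries of male A, male B, the lactating cow or the dry cow in turn, 1, 0, 0 and 1 members passed in heart by limma (13, 7, 15 and 10 at an unadjusted p under 0.05), against 5 with all 4 animals. Over all identifiers these fits called 4.27%, 0.208%, 0.409% and 0.569% in heart, against 3.31% with all 4 animals. In muscle 0, 2, 3 and 2 members passed (11, 8, 13 and 19 unadjusted), against 4, where 0.226%, 0.299%, 0.391% and 0.642% of all identifiers did. For the difference of differences 0, 1, 0 and 0 members passed (3, 3, 8 and 5 unadjusted), against 1, where 0.0367%, 0.0549%, 0.0244% and 0.0795% of all identifiers did. The member that passed in heart without male A was member 38, which is not among the 5. The difference of member 67 in heart was -0.28 without the lactating cow (limma adjusted p = 0.242) and -0.90 without the dry cow (limma adjusted p = 0.00176), against -0.59 with all 4 animals, and it passed in neither fit without a male. In muscle, the difference of member 57 missed the threshold without male A (limma adjusted p = 0.0701) and passed without any other animal. Without male A, male B, the lactating cow or the dry cow in turn, that of member 49 was 0.63, 1.41, 0.96 and 1.07, against 1.02. In the same order, that of member 71 was 0.60, 0.74, 0.95 and 0.40, against 0.67. That of member 26 ran from -1.13 without male B to -0.85 without male A, against -0.99. None of the called sex differences changed sign in these fits, but none could have. For each, both animals of 1 sex lay above both of the other, so the sign was fixed in advance.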

How the data were processed

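The authors deposited 1 table of FPKM values for 24616 Ensembl identifiers in 51 columns. Of these, 47 matched a sample by name and 4, matching none, were left out. The column for male A's muscle has an extra letter in its name. Per the submitters' processing notes, Trimmomatic 0.39, STAR, Cufflinks and the assembly UMD3.1 were used. Their order, settings and gene annotation are not given in the sources used here. Library depth in fragments is unknown. Steps among values under 0.2 FPKM gave relative depths of 0.933 to 1.38 over the heart and muscle libraries.

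From this table, label means chose the members. Heart-enriched and muscle-enriched identifiers reached 1 FPKM and 4 times every other label's mean. The members and lists were chosen with earlier results of these data known. Sex was tested with limma 3.58.1 in R 4.3.3 on log2(FPKM + 1), with moderated variances and a trend, among identifiers that reached 1 FPKM in 2 or more libraries, over 20 cells of tissue and sex. Such differences understate changes of low values. The method was tested on simulated data with the same spread of a gene in every tissue and no animal effect. That test does not cover spreads that differ between tissues, or libraries that share an animal. The same 4 animals gave every tissue, and same-animal deviations in heart and muscle correlated at 0.196 to 0.371 over 16503 identifiers. Described members were set by rules of rank: the 15 most abundant, the 5 largest ratios each way, the 5 widest distances from other labels, 3 on each side of the threshold, and all called for sex. Members 24, 75 and those of single remarks were added after their values were seen. The reference table (ARS-UCD2.0, 37063 genes) holds no Ensembl identifiers, so 0 members matched and lists by symbol could not be applied. At most 4 identifiers are printed, the 2 most extreme each way between heart and muscle.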

Additional observations from a re-analysis of the deposited data

Results flagged for a closer look

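In groups of 4 libraries, a value is listed here when its gap to the others fills an unusually large share of the range. Only about 5% of chance samples have a gap that large, so chance lists about 1 in 20 groups. Of 10 tissues, 2 were listed for the members' summed level, 1 of 8 tissues for the members most restricted to heart and muscle, and 1 of 54 groups for single members. Each was a library of male B. In its frontal cortex the 20 most restricted members had a median of 784 parts per 1000000 of their heart and muscle level, where the other 3 animals had 1291 to 1393. In its ileum the members' FPKM summed to 605, above 499 to 515 in the other 3. In its liver the sum was 273, below 313 to 320. In its heart, member 12 stood at 825 FPKM, below 1097 to 1150 in the other 3 hearts. The difference of member 49 between heart and muscle in its male minus female difference, -1.38 on the log2 scale, is listed because it was tested and passed in the 40-library fit.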

How the results depend on the processing

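The group held 68 to 108 members over the other definitions tried, within 1.5 times of 76, the 108 being without a limit between heart and muscle; with all libraries rescaled to the same sum 64 of the 76 were shared, and with quantile normalization 74. The median log2 difference between heart and muscle was -0.15, -0.49 after rescaling to the same sum and -0.61 after quantile normalization, which left 20 members higher in heart; 8 and 15 members changed sign in these. The cause was not tested. Over all identifiers, 546 were called for sex in heart, 952 with 0.1 FPKM added, 137 with quantile normalization (53 higher in males and 84 in females, in place of 510 and 36), 152 in the 8-library fit, and 34 to 698 without 1 animal (34 without male B, 67 without the lactating cow, 93 without the dry cow). In muscle 98 were called, 197 with quantile normalization (101 and 96, in place of 63 and 35), 33 in the 8-library fit, and 37 to 105 without 1 animal (37 without male A, 49 without male B, 64 without the lactating cow). For the difference of differences 14 were called, 28 without a filter on low values, 38 with quantile normalization, 5 in the 8-library fit, and 4 to 13 without 1 animal (6 without male A, 9 without male B, 4 without the lactating cow).

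Members called in heart numbered 5, with 0 after 0.1 FPKM was added, 1 with quantile normalization, 0 in the 8-library fit and 0 to 1 without 1 animal. In muscle there were 4, with 0, 1 in the 8-library fit and 0 to 3 without 1 animal, and for the difference of differences 1, with 0 in both and 0 to 1 without 1 animal. With 1 animal left out, the lone animal of its sex is assumed to vary like the other groups. No called sex difference of a member changed sign in any alternative, and 55 single values no longer passed while 36 still did. The sign of a called difference could have changed only with rescaling or quantile normalization, since both animals of 1 sex lay above both of the other. With the animal as a replicate block, the difference of differences was called for 15 identifiers and again for 1 member, member 49 (limma adjusted p = 0.00791, over alternatives 0.00375 to 0.498). It could be fitted only for this difference, since each animal has 1 sex. With 2 animals of a sex, and depth unknown, sex and animal cannot be told apart further.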
